A study of Mus musculus with 88 samples.

Results

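The 10 genes described here handle heme and iron: Hmox1, Fth1, Ftl1, Tfrc, Trf, Slc11a2, Slc11a1, Slc40a1, Cp and Hpx. They were chosen by name for their part in heme breakdown, iron storage, iron uptake and iron export, and all 10 were found among the 54532 genes of the count table by their Ensembl identifiers. Bleeding into tissue releases hemoglobin, and the heme set free from it is opened by heme oxygenase, which yields iron, biliverdin and carbon monoxide. A cell can store that iron in ferritin, a shell built of heavy and light chains, or pass it out through ferroportin, and it takes up further iron through the transferrin receptor. Much of this control acts on mRNA: when iron is scarce, iron regulatory proteins bind a hairpin called the iron responsive element, which blocks translation of ferritin and ferroportin mRNA and protects transferrin receptor mRNA from decay. RNA counts show the abundance of a transcript and not how much of it was translated.

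The study measured polyadenylated RNA of cortex from female and male C57BL/6 mice after controlled cortical impact, in which a piston strikes the exposed brain. Mice were 8 to 9 weeks old at impact. The injured mice had the right somatosensory cortex exposed by a 3 mm craniotomy, an impact with a 2 mm tip at 6.0 m/s to a depth of 1 mm for 100 ms, and buprenorphine at 0.05 mg/kg. After perfusion, a 4 mm punch was taken from the injured side (ipsilateral) and from the opposite side (contralateral) 24 h or 72 h later, or from naive mice, whose right punch counts as ipsilateral. The labels give no surgery or drug for naive mice, so effects of impact, craniotomy and buprenorphine cannot be told apart. Compared were 15 ipsilateral libraries at 24 h (7 females, 8 males), 15 at 72 h (9 females, 6 males) and 13 from naive mice (7 females, 6 males), with 15, 16 and 13 contralateral libraries. A library here is the RNA of 1 punch, and each animal gave both.

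Hairpins with the letters of an iron responsive element were searched in the mRNA strand of all protein-coding transcripts of GENCODE M21 (GRCm38). The search shows which of the 10 transcripts hold these letters and at which end. The motif was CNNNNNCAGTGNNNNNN, in which the 5 bases before and the 5 after the 6-base loop had to pair (G with T allowed). It was found in 4 of the 10 genes and in 1.34% of 21901 protein-coding genes (294). A match is a description of the letters and not a proven site, and no match says only that these letters are not in the transcripts searched. An element with an unpaired base within these 5 pairs would be missed. Each sequence below is written 5′ to 3′ on the gene's strand, as DNA letters, with the loop in capitals.
Fth1, 5′ UTR, chr19:9982733-9982759, plus strand: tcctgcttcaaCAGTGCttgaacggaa
Ftl1, 5′ UTR, chr7:45459780-45459806, minus strand: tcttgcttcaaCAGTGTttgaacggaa
Slc40a1, 5′ UTR, chr1:45925466-45925492, minus strand: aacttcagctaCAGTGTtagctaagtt
Tfrc, 3′ UTR, chr16:32631220-32631246, plus strand: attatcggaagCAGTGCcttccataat
Tfrc, 3′ UTR, chr16:32631599-32631625, plus strand: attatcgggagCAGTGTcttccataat
Tfrc, 3′ UTR, chr16:32631664-32631690, plus strand: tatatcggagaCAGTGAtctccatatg
Tfrc, 3′ UTR, chr16:32631711-32631737, plus strand: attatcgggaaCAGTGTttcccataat
Fth1, Ftl1 and Slc40a1 each held 1 match ahead of the coding sequence, and Tfrc held 4 matches behind it.

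Libraries held a total count of 10.6 to 26.4 M (median 16.2 M). Both libraries of LF3, a female at 72 h, stood apart. Mitochondrial genes took 10.5% of counts in its ipsilateral and 7.80% in its contralateral library, against 2.35 to 6.73% in all other libraries, and the summed level of 6 neuronal markers was 14931 and 20755 CPM (counts scaled to the library total), above the ranges of the other 72 h libraries (4134 to 7410 ipsilaterally, 9353 to 11149 contralaterally). Results that rest on LF3 are given with and without it. The ipsilateral library labelled as the female PF1 held Ddx3y, a Y-linked transcript, at 57.6 CPM and Xist at 0.108 CPM, and the ipsilateral library of animal PM1, whose labels contradict each other on sex, held Xist at 457 CPM and Ddx3y at 0. The fits include the batch letter of the labels as a term: naive and 24 h animals are in batches A and B, and 72 h animals in batches B and C. Their contralateral libraries matched the labels, with Xist at 488 CPM in PF1 and Ddx3y at 58.2 CPM in PM1; whether the 2 ipsilateral libraries were exchanged was not tested. The PF1 library was kept as labelled, as 1 of the 9 females at 72 h and paired with PF1's contralateral punch, and the PM1 library entered no comparison.

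After impact, injured cortex held more transcript of heme oxygenase, both ferritin chains, transferrin, ceruloplasmin and the phagosomal iron transporter at both times, while ferroportin was below its naive level at 24 h and above it at 72 h. At 24 h 7 of the 10 genes were higher and 1 was lower than in naive cortex, by edgeR's quasi-likelihood test at an adjusted p under 0.05 and over the mean of the sexes. Of all 19126 genes tested in that comparison 43% were called, 22.9% higher and 20.1% lower. At 72 h 7 were higher and none was lower than naive, where 48.5% of all genes were called (27.8% higher, 20.7% lower), 7 members had an unadjusted p under 0.05, and DESeq2 called 7 higher and 0 lower. Between 72 h and 24 h 6 were higher and 1 was lower at 72 h, with 37% of all genes called (21.7% higher, 15.3% lower). The median log2 fold change of the 10 genes was 0.79 at 24 h and 1.10 at 72 h, beside 0.01 and 0.06 over all genes tested. Both comparisons use the same naive libraries. In RNA of whole punches, fewer cells of a type and less RNA per cell cannot be told apart.

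**Figure D1:**
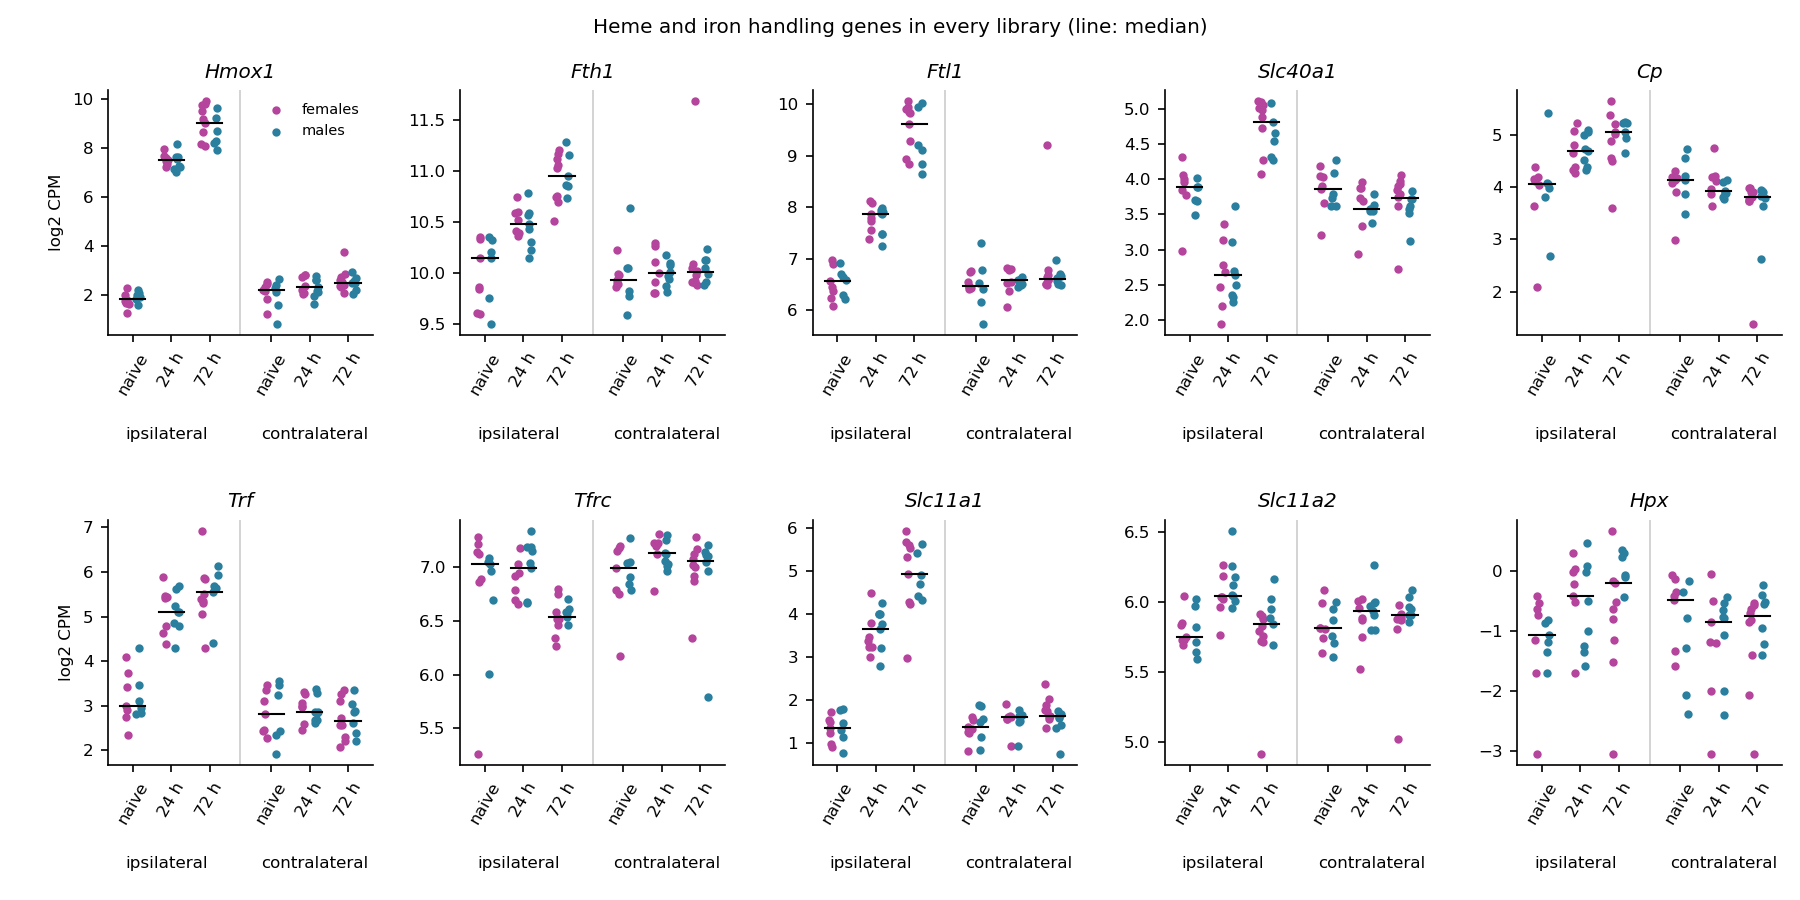
Level of each of the 10 genes in every library (y axis, log2 CPM with its own range for each gene), by side and treatment, with 1 point per library, coloured by sex, and a line at the group median. Hmox1 lies between 131 and 971 CPM in all injured ipsilateral punches and at 4.73 CPM or less in all naive ipsilateral punches, and Slc40a1 is lower at 24 h and higher at 72 h than in naive cortex.

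**Figure D2:**
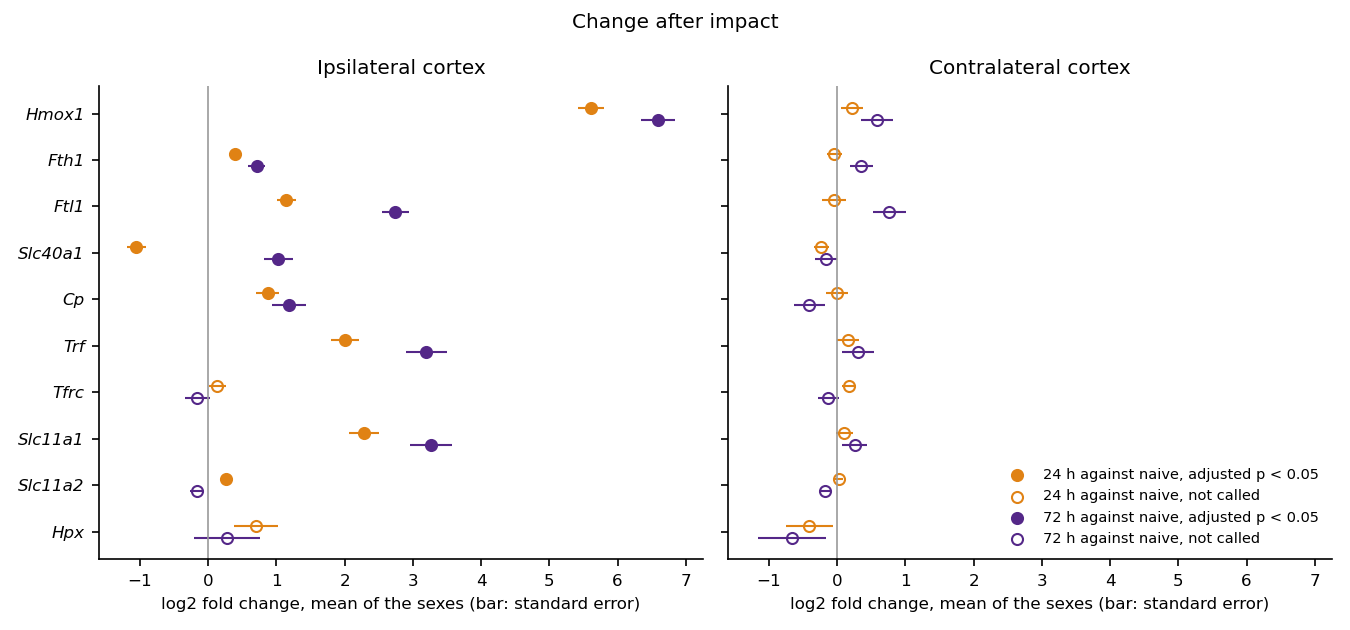
Log2 fold change against naive of each gene at 24 h and 72 h, on the ipsilateral and the contralateral side, as the mean of the sexes with bars of 1 standard error and filled points for an adjusted p under 0.05. Ipsilateral values reach 6.60 for Hmox1 at 72 h, and no contralateral value against naive passed the test.

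Transcripts that mark cell types also changed after impact, in directions that differed between types. Summed over 8 markers of monocytes and macrophages, the level was 84.2 to 180 CPM in naive, 173 to 601 at 24 h and 568.1 to 2047 at 72 h ipsilateral punches, and 6 of 8 markers were higher at 24 h and 7 of 8 at 72 h. The 7 microglial markers summed to 306 to 388 CPM in naive, 250 to 336 at 24 h and 347 to 1502 at 72 h. Of them 4 were lower and 1 higher at 24 h, and 6 were higher at 72 h. Red cell transcripts (5 genes of globin and heme synthesis) summed to 3.17 to 95.5, 29.5 to 568.4 and 67.6 to 596 CPM in the same order, with 5 of 5 higher at both times. Neutrophil markers (7 genes, 6 of them tested) summed to 5.72 to 16.8, 27.8 to 500.5 and 27.7 to 87.2 CPM, with 6 and 5 higher, and the defining marker Ly6g was at 0 in all naive ipsilateral punches. Oligodendrocyte markers (8 genes) summed to 1462 to 5199, 2615 to 6982 and 1536 to 7336 CPM, with 4 and 5 higher, and endothelial markers (6 genes) to 201 to 296, 240 to 313 and 358 to 615 CPM, with 2 higher and 1 lower at 24 h and 4 higher at 72 h. Neuronal markers (6 genes) summed to 9745 to 11359, 7231 to 9731 and 4134 to 14931 CPM, with 2 of 6 lower at 24 h, and 4 lower and 1 higher at 72 h. The highest neuronal sum at 72 h was that of LF3, and the other 72 h punches held 4134 to 7410 CPM. LF3 also had the lowest 72 h sums of oligodendrocyte markers (1536 CPM) and astrocyte markers (2237 CPM). Astrocyte markers (6 genes) summed to 2990 to 5898, 3362 to 4987 and 2237 to 7321 CPM, with 2 higher and 3 lower at 24 h, and 3 higher and 1 lower at 72 h. The part of these cell types in the results below was not tested.

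Hmox1 (ENSMUSG00000005413, chr8:75093621-75100589, GRCm38), the stress-induced heme oxygenase, changed by the largest amount of the 10 genes. Ipsilateral levels were 2.31 CPM at the lowest, 3.50 at the median and 4.73 at the highest in naive mice, 131, 183 and 285 CPM at 24 h, and 246, 525 and 971 CPM at 72 h. No injured punch came near a naive one, and the 24 h and 72 h ranges overlapped at their edges. Hmox1 was 48.9-fold higher at 24 h than in naive cortex (log2 5.61 ± 0.20, standard error; edgeR adjusted p 8.23e-25) and 96.9-fold higher at 72 h (6.60 ± 0.25, adjusted p 6.19e-23). It was also higher at 72 h than at 24 h, by 0.99 ± 0.21 (adjusted p 0.000305). Among 72 h animals the level spread by nearly 4 times between TM2, a male at 246 CPM, and SF3, a female at 971 CPM.

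Fth1 and Ftl1 encode the ferritin heavy chain, which oxidizes iron, and the light chain, which helps form the iron core. Fth1 (chr19:9980598-9985098) was at 721, 1132 and 1311 CPM in naive mice (lowest, median, highest), 1133, 1427 and 1767 CPM at 24 h and 1461, 1984 and 2493 CPM at 72 h. Ftl1 (chr7:45457944-45459884) was at 67.3, 95.3 and 125 CPM in naive mice, 151, 232 and 277 CPM at 24 h and 403, 787 and 1066 CPM at 72 h. The 3 groups of Ftl1 did not overlap at all, while those of Fth1 separated only between 72 h and naive. The light chain had the larger change: 1.15 ± 0.14 at 24 h (edgeR adjusted p 4.11e-09) and 2.74 ± 0.20 at 72 h (1.04e-14), against 0.39 ± 0.08 (0.00018) and 0.71 ± 0.12 (9.01e-06) for the heavy chain. At 72 h against 24 h Ftl1 was higher by 1.59 ± 0.18 (adjusted p 7.59e-09) and Fth1 by 0.32 ± 0.12 (0.0281). The difference between the chains was not tested as such. The Fth1 step between 72 h and 24 h was lost without LM2 (0.22, adjusted p 0.188), PF2 (0.27, 0.0846) or RF2 (0.29, 0.0521), and in batch B alone Fth1 at 24 h was 0.26 ± 0.12 (0.154). Transcripts of the pseudogene Ftl1-ps1 came to 1.98% of the Ftl1 count and could hold reads of it, and Ftl1 shares exon bases with the antisense gene Gm10252, whose reads cannot be told apart from it without strand.

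Tfrc, the receptor that takes up iron-loaded transferrin, was not called in injured against naive cortex. Its ipsilateral levels (chr16:32608920-32632794) were 38.2, 130 and 155 CPM in naive mice, 101, 127 and 162 CPM at 24 h and 77.1, 92.5 and 112 CPM at 72 h. The groups overlapped throughout, but the naive range was widened by KF3 at 38.2 and KM3 at 64.2 CPM, both of batch B, while the other 11 naive punches held 104 to 155 CPM. The log2 fold change was 0.13 ± 0.12 at 24 h (edgeR adjusted p 0.394) and -0.16 ± 0.18 at 72 h (0.486). Without KF3 it was -0.33 at 72 h (adjusted p 0.0463), and without the batch term -0.35 (0.0104), so that the call turned on KF3 and on the batch term.

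Trf, or transferrin, the iron carrier of blood that oligodendrocytes and choroid plexus also make, was called higher at both times. Ipsilateral levels (chr9:103204001-103230444) were 4.96, 7.79 and 19.6 CPM in naive mice, 19.6, 34.5 and 58.8 CPM at 24 h and 19.6, 46.9 and 121 CPM at 72 h. The highest naive punch met the lowest injured ones without passing them. Trf was 2.00 ± 0.21 higher at 24 h (edgeR adjusted p 1.43e-10) and 3.20 ± 0.30 higher at 72 h (9.53e-12). The highest library at 72 h was LF3, without which the 72 h value was 2.82 ± 0.28 (4.1e-11). The 72 h against 24 h difference of 1.20 ± 0.27 (adjusted p 0.000473) became 0.83 ± 0.26 without LF3 (0.0106) and 0.47 without the batch term (0.061). TF1 and TM2, with the lowest Trf at 72 h (19.6 and 21.2 CPM), had oligodendrocyte marker sums of 2663 and 2039 CPM, while LF3 had the lowest sum, 1536 CPM, beside the highest Trf. Choroid plexus markers summed to 668 to 791 CPM in SF1, SF2 and SF3, against 29.6 CPM or less in all other 72 h punches, and Trf was 39.7 to 58.3 CPM in these 3, inside the range of the rest. Trf shares exon bases with Gm20425 on the same strand, so part of its reads cannot be told apart.

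Slc11a2 encodes the ferrous iron transporter DMT1 of endosomes, which moves the iron brought in by transferrin into the cytosol. Its levels (chr15:100387898-100425072) were 48.1, 53.7 and 65.7 CPM in naive, 54.3, 65.7 and 91.0 CPM at 24 h and 30.0, 57.3 and 71.5 CPM at 72 h. These ranges overlapped, and the lowest 72 h value was LF3. Slc11a2 was slightly higher at 24 h, by 0.26 ± 0.07 (edgeR adjusted p 0.00237), was at -0.16 ± 0.11 at 72 h (0.216), and was lower at 72 h than at 24 h by 0.42 on the log2 scale (SE 0.10, adjusted p 0.00115). In batch B alone the 24 h value was 0.15 ± 0.15 (0.511) and the value between times -0.37 ± 0.14 (0.0751).

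Slc11a1, also called Nramp1, carries metal ions across the phagosome membrane of macrophages and other myeloid cells. Ipsilateral levels (chr1:74375195-74386062) were 1.60, 2.44 and 3.35 CPM in naive mice, 6.79, 12.4 and 22.4 CPM at 24 h and 7.82, 30.4 and 61.1 CPM at 72 h. All 30 injured punches lay above all 13 naive ones, and the 24 h and 72 h ranges overlapped. The gene was 4.87-fold higher at 24 h (2.28 ± 0.22, edgeR adjusted p 3.86e-11) and 9.61-fold higher at 72 h (3.26 ± 0.31, 1.52e-11). The difference between the times, 0.98 ± 0.27 (0.00422), was lost without LM2 (0.69, adjusted p 0.068) or PF2 (0.69, 0.0539). LF3 had the lowest level at 72 h, and without it the 72 h value was 3.48 ± 0.29. Macrophages and neutrophils both express this gene. At 72 h against 24 h 4 of 8 macrophage markers were higher and none was lower (median sums 918 and 284 CPM). Of 6 neutrophil markers 1 was higher and 4 were lower (46.0 and 69.0 CPM). All 7 microglial markers were higher (1057 and 305 CPM). Of all genes 21.7% were higher and 15.3% lower in that comparison. The part of these cells in the Slc11a1 difference was not tested.

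Slc40a1, which encodes ferroportin, the iron exporter, was the only one of the 10 genes called lower at 24 h, and it was called higher at 72 h. Ipsilateral levels (chr1:45908068-45926523) were 7.76, 14.7 and 19.9 CPM in naive mice, 3.70, 6.09 and 12.2 CPM at 24 h and 16.7, 28.1 and 34.5 CPM at 72 h. The 24 h and 72 h punches did not overlap, and each overlapped the naive range in part. Slc40a1 fell to 0.483 of its naive level at 24 h (log2 -1.05 ± 0.14, edgeR adjusted p 1.02e-07), was 2.03-fold higher at 72 h (1.02 ± 0.21, 0.000107) and 4.22-fold higher at 72 h than at 24 h (2.08 ± 0.19, 5.11e-11). The same held within batches: -1.12 ± 0.19 in batch A (adjusted p 0.000112) and -0.96 ± 0.22 in batch B (0.00627) at 24 h, and 1.12 ± 0.25 in batch B at 72 h (0.00326). Batch A holds no 72 h animals and batch C holds no others, so they give no within-batch value for that time. Of 7 microglial markers 4 were lower and 1 higher at 24 h, and 6 were higher at 72 h. Of 6 endothelial markers 2 were higher and 1 lower at 24 h, and 4 were higher at 72 h. Of 8 oligodendrocyte markers 4 were higher and 0 lower at 24 h, and 5 were higher at 72 h. Their sums are given above, and the part of these cells was not tested. Microglia, endothelium and oligodendrocytes are among the brain cells known to make ferroportin.

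Cp and Hpx encode proteins that oxidize iron or bind heme outside cells. Cp, ceruloplasmin, a copper ferroxidase that works with ferroportin (chr3:19957054-20009145), was at 4.15, 16.5 and 42.3 CPM in naive mice, 19.1, 25.7 and 37.1 CPM at 24 h and 12.0, 33.1 and 49.8 CPM at 72 h. The naive range spanned nearly all of the injured one, from KF3 at the lowest to EM3 at the highest, and the groups overlapped. Cp was higher by 0.87 ± 0.17 at 24 h (edgeR adjusted p 3.7e-05) and 1.18 ± 0.25 at 72 h (0.000121), and did not pass between the times (0.31 ± 0.22, 0.279). Hpx, hemopexin, which binds free heme (chr7:105591613-105600137), was near the limit of detection at 0, 0.354 and 0.627 CPM in naive mice, 0.185, 0.627 and 1.27 CPM at 24 h and 0, 0.753 and 1.48 CPM at 72 h. Its values of 0.70 ± 0.32 at 24 h (0.0768) and 0.28 ± 0.48 at 72 h (0.66) did not pass. DESeq2 called Hpx at 24 h (0.72, adjusted p 0.0493), as did the fit without LF3 (0.70, 0.0492), so at these levels the call turned on the setting.

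Levels were also scaled by the length of the merged exons, which joins all annotated transcripts of a gene and can exceed the length of the mRNA present. The median naive ipsilateral level then ran from Fth1 at 326 CPM per kb through Ftl1 at 71.1 and Tfrc at 21.1 to Slc11a2 at 8.45. A group of close values followed: Trf at 2.35, Hmox1 at 2.00, Cp at 1.72 and Slc40a1 at 1.63 CPM per kb. Slc11a1 at 0.659 and Hpx at 0.236 were lowest. The ranges of those 4 close genes overlapped, and so did those of Slc11a1 and Slc40a1, while Fth1, Ftl1, Tfrc and Slc11a2 formed steps whose ranges overlapped only between Tfrc and Slc11a2. At 72 h the median of Ftl1, 587 CPM per kb, stood beside that of Fth1, 572, with overlapping ranges (300 to 795 and 421 to 719), and Hmox1 had moved to the third place at 300 CPM per kb (141 to 555). The likeness of the 2 chains rests on merged lengths of 3469 bases for Fth1 and 1340 for Ftl1. Unscaled, their 72 h medians were 1984 and 787 CPM. Which transcripts of each gene were present was not tested.

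On the contralateral side none of the 10 genes was called against naive at either time by edgeR, with 1 gene at 24 h and 4 at 72 h at an unadjusted p under 0.05. Of all 18436 genes tested 2.1% were called at 24 h (388 genes) and 0.26% at 72 h (48). Without LF3 those calls were 1190 and 17, and without the batch term 326 and 1456, with none of the 10 genes called in the fit without LF3. DESeq2 called none of those to which it gave an adjusted p, and it gave Ftl1 none. Hmox1 was at 1.63, 4.46 and 6.13 CPM (lowest, median, highest) in naive contralateral punches, 2.98, 4.96 and 6.93 CPM at 24 h and 3.98, 5.57 and 13.6 CPM at 72 h. Slc40a1 was at 9.11, 14.4 and 19.3, 7.57, 11.9 and 15.4, and 6.50, 13.2 and 16.6 CPM in the same order. All contralateral groups overlapped for all 10 genes. The ipsilateral and contralateral fits are separate, and the test between sides follows.

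One contralateral call was made between the injured times, where 9.21% of all genes were called: Ftl1 at 72 h against 24 h, 0.81 ± 0.23 (edgeR adjusted p 0.0232). It rested on LF3, whose contralateral library held 589 CPM of Ftl1 and 3302 CPM of Fth1, against 89.6 to 109 and 943 to 1089 CPM in the other 8 females at 72 h. Without LF3 the Ftl1 difference was 0.04 ± 0.10 (adjusted p 0.979), and the calls over all genes in that comparison went down to 45, against 1698 with LF3.

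The 2 punches of each animal were compared with the animal as a block. At 72 h 1 of the 15 pairs was PF1, whose punches carried transcripts of different sexes, so it may not be a true pair. In naive mice no gene of the 10 differed between sides, and none of 19946 genes tested did (0% called); Trf alone had an unadjusted p under 0.05, at 0.38 ± 0.16 (edgeR p 0.0237). At 24 h 8 of the 10 were higher and 1 was lower ipsilaterally, with 47.7% of all genes called (23.7% higher, 24.1% lower). At 72 h again 8 were higher and 1 lower, with 61.7% called (31.1% higher, 30.6% lower). Hmox1 was higher in the ipsilateral punch of 15 of 15 animals at each time, by 5.16 ± 0.17 at 24 h (adjusted p 2.36e-28) and 6.36 ± 0.18 at 72 h (1.89e-30). Ftl1, Trf and Slc11a1 were also higher in all 15 at both times, and Ftl1 reached 2.67 ± 0.14 at 72 h (1.66e-21). Slc40a1 was lower ipsilaterally in 15 of 15 animals at 24 h (-0.94 ± 0.09, adjusted p 1.82e-12) and higher in 15 of 15 at 72 h (1.05 ± 0.09, 8.88e-15). The counts of animals at 72 h include PF1. Without PF1 the 72 h values were 6.42 ± 0.18 for Hmox1, 2.73 ± 0.14 for Ftl1 and 1.11 ± 0.08 for Slc40a1.

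Within animals, Tfrc was lower ipsilaterally at 72 h in 14 of 15 animals, by 0.39 on the log2 scale (SE 0.09, edgeR adjusted p 0.000272), and was at -0.18 ± 0.09 at 24 h (0.0977). Without PF1, whose pair is in doubt, the 72 h value of Tfrc was -0.40 ± 0.09 (0.000257). The log2 ratio ranged from -0.75 to 0.79 over animals at 72 h, with a median of -0.52, and the exception was LM2, at 95.5 CPM ipsilaterally and 55.3 CPM contralaterally. Slc11a2 was 0.18 ± 0.04 higher at 24 h (0.000912) in 13 of 15 animals, and at -0.08 ± 0.05 at 72 h (0.121). Cp was higher in 14 of 15 animals at 24 h and 15 of 15 at 72 h (0.69 ± 0.12 and 1.31 ± 0.12). Hpx passed at both times with 0.75 ± 0.30 at 24 h (0.0336) and 0.75 ± 0.29 at 72 h (0.025), and was higher in 11 and 12 of 15 animals; with no filter on low counts the 24 h call was lost (0.77, adjusted p 0.0565). Against the side difference of naive mice, 7 genes were higher and 1 lower at 24 h (30.7% of all genes called, 16% higher and 14.7% lower) and 8 were higher at 72 h (48.2%, 25.1% higher and 23.1% lower). Tfrc did not pass that test at either time, with -0.06 ± 0.13 at 24 h (adjusted p 0.795) and -0.27 ± 0.13 at 72 h (0.0918), though with no filter on low counts the 72 h value passed (-0.26, 0.0297).

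**Figure D3:**
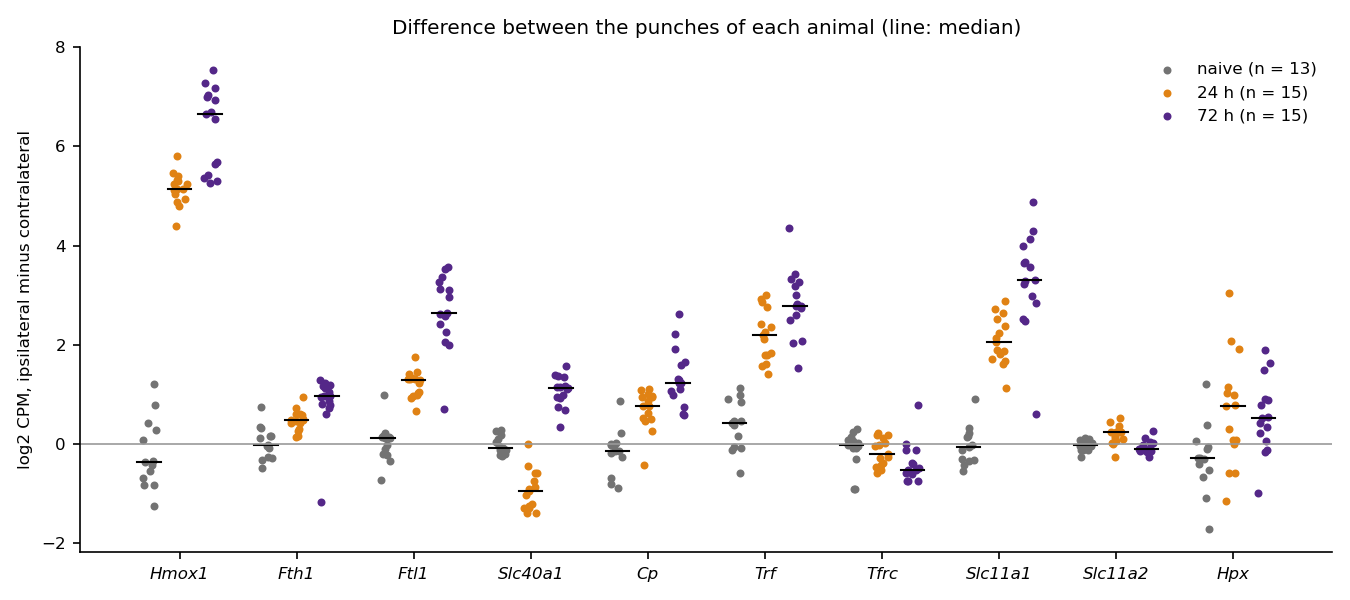
Log2 ratio of the ipsilateral to the contralateral level in each animal, by gene and treatment, with 1 point per animal and a line at the group median. Slc40a1 lies below 0 in all 15 animals at 24 h and above 0 in all 15 at 72 h, and Tfrc lies below 0 in 14 of 15 animals at 72 h.

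The study asked whether the response differs between females and males, and for these genes no difference passed. In ipsilateral cortex 0 of the 10 genes were called for the interaction of sex and injury at 24 h or 72 h, where 0% of all genes were called, and 0 for females against males in naive, 24 h or 72 h mice, where 0.0366, 0.0366 and 0.0314% were. None had an unadjusted p under 0.05 by edgeR, and DESeq2 called none. The 72 h females here include the ipsilateral library of PF1, which held Ddx3y at 57.6 CPM and Xist at 0.108 CPM, and the PM1 library is left out. Without PF1 these counts of the 10 genes were also 0. Taken apart, females had 6 genes higher and 1 lower at 24 h (29.1% of all genes called, 16.2% higher and 12.9% lower), and males 7 and 1 (29.1%, 16.1% and 13%). At 72 h 7 were higher in females (45.5%, 26.7% higher and 18.8% lower) and 7 in males (36.3%, 20.8% and 15.5%); without PF1 Slc11a2 was also called in females, lower (-0.37 ± 0.13, edgeR adjusted p 0.0193). Contralaterally 0 were called for the interaction or between the sexes, with 1 and 2 genes at an unadjusted p under 0.05 at 72 h. Of all genes 0% were called for that interaction at either time, and 0.0325, 0.038 and 0.038% between the sexes in naive, 24 h and 72 h mice. In females 1 contralateral gene was called at 72 h against naive, Ftl1 (3.09% of all genes called), and it was lost without LF3. A p that misses the threshold does not show that the sexes respond alike.

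Among injured animals, the spread of Hmox1 was set against that of the other 9 genes at each time, as log2 CPM in ipsilateral punches (18 relations, 15 animals each, p by 100000 permutations, two-sided, adjusted over the 18). At 72 h animals with more Hmox1 had more Slc40a1 (Pearson r 0.89, Spearman rho 0.85, adjusted p 0.00036), Slc11a1 (r 0.82, rho 0.86, 0.00081), Fth1 (r 0.76, rho 0.77, 0.0093), Ftl1 (r 0.75, rho 0.74, 0.00947) and Cp (r 0.66, rho 0.73, 0.00947). Without the 2 animals farthest from the median Hmox1, r was 0.85, 0.90, 0.72, 0.72 and 0.75 for these genes. Within batch C, the 10 animals of 72 h alone, r was 0.92, 0.85, 0.78, 0.90 and 0.61, the last with a permutation p of 0.0556. Batch B has 5 animals at that time, and no correlation is reported over fewer than 6. At 24 h Ftl1 alone passed (r 0.67, rho 0.73, adjusted p 0.0188, and r 0.65 without the 2 farthest), with r 0.43 in the 7 animals of batch A (exact permutation p 0.335) and 0.67 in the 8 of batch B (exact p 0.0693); neither passed alone, and p-values over so few animals do not show that the relation is absent. Slc40a1 had r -0.24 at 24 h (adjusted p 0.514), and at 72 h Trf (r -0.25) and Tfrc (r -0.33) did not pass. The values come from the same libraries, and markers of macrophages and microglia varied among the same animals; their part was not tested.

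**Figure D4:**
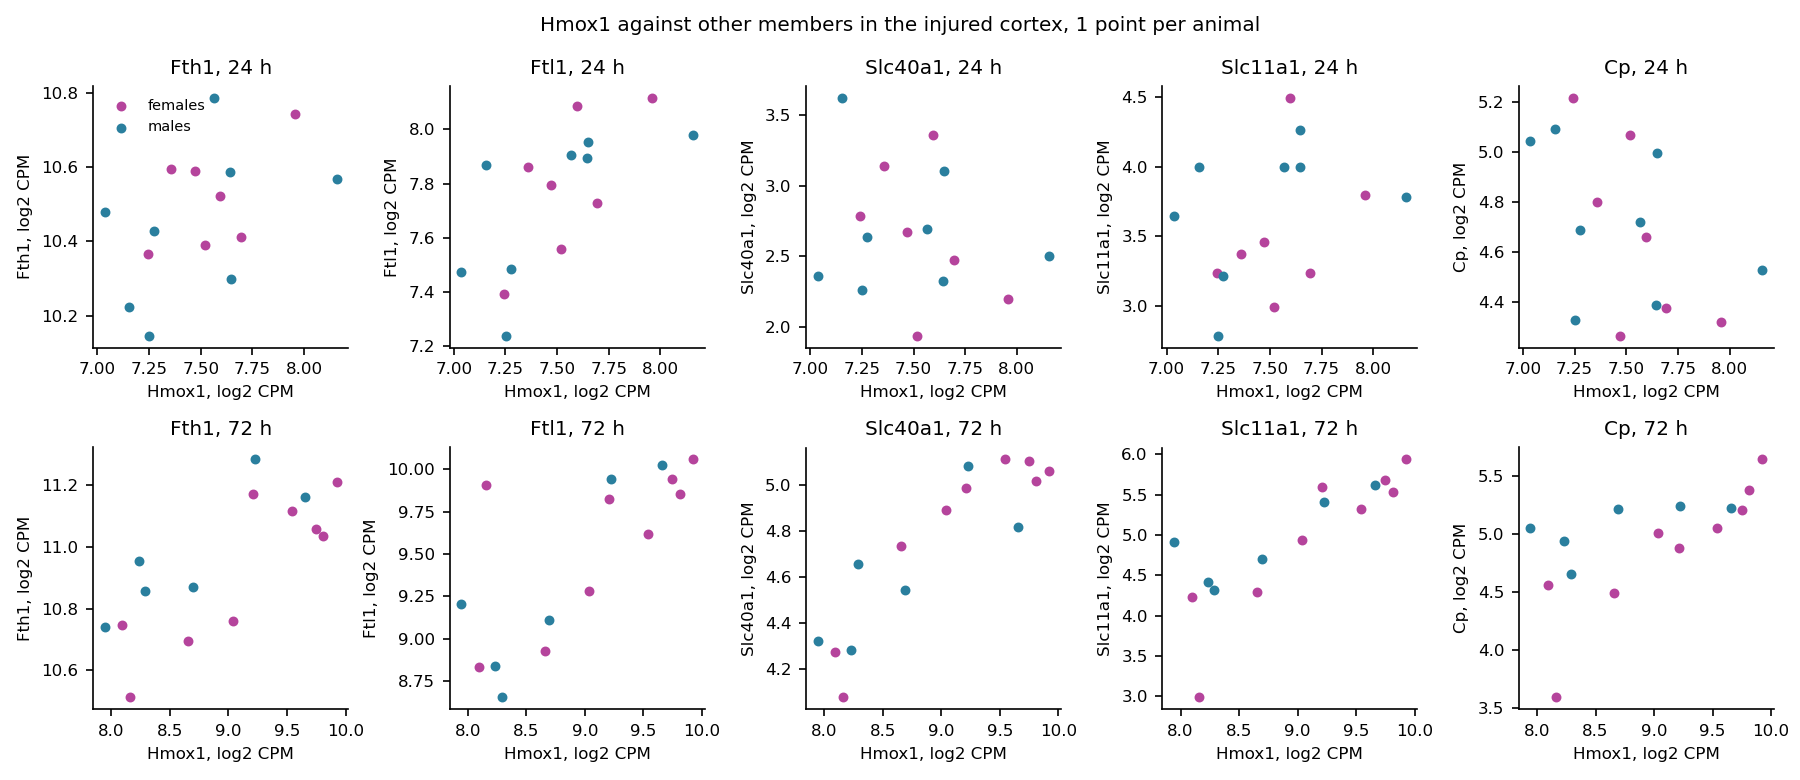
Ipsilateral log2 CPM of Hmox1 (x axis) against Fth1, Ftl1, Slc40a1, Slc11a1 and Cp (y axes), with 1 point per injured animal, coloured by sex, at 24 h (top) and 72 h (bottom). At 72 h Slc40a1 and Slc11a1 lie along Hmox1 with r 0.89 and 0.82, while at 24 h Slc40a1 does not (r -0.24).

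Of 54 other genes of heme and iron biology 49 were tested ipsilaterally. At 24 h 14 were higher and 7 lower than naive and at 72 h 17 were higher and 6 lower, with medians of 0.05 and 0.24 log2 units beside 0.01 and 0.06 over all genes; these shares lie near those of all genes given above. Without LF3 the counts were 16 higher and 12 lower at 24 h, where 7 genes gained a call, and 19 and 6 at 72 h, where 6 gained and 4 lost one. Of all genes 9668 of 19062 were called at 24 h without LF3, against 8216 of 19126 with it, and 9225 against 9283 at 72 h. In the longest list, iron uptake and reduction, 6 of 11 genes were higher and 1 lower at 24 h, and 6 and 2 at 72 h; Scara5, a ferritin receptor, passed at 72 h without LF3 (2.00, adjusted p 0.0294). Lcn2, the siderophore-binding lipocalin made by astrocytes and neutrophils under inflammation, was at 0 to 1.62 CPM in naive, 19.0 to 76.2 CPM at 24 h and 9.16 to 53.9 CPM at 72 h, which is 7.30 ± 0.37 and 6.62 ± 0.47 log2 units (edgeR adjusted p 1.94e-19 and 4.8e-15). The metalloreductase Steap4 was at a median of 0.591 CPM in naive, 18.7 at 24 h and 4.05 at 72 h (4.68 ± 0.36 and 2.43 ± 0.51). Steap3, the endosomal ferrireductase, was at a median of 7.10, 10.5 and 24.3 CPM in the same order (0.55 ± 0.10 and 1.55 ± 0.15), and Slc39a14, a carrier of iron and zinc not bound to transferrin, at 38.6, 72.6 and 59.7 CPM (0.89 ± 0.06 and 0.26 ± 0.09).

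Genes for hemoglobin and heme transport were called in both directions, 2 of 7 higher and 2 lower at 24 h and 4 higher at 72 h. Hp, haptoglobin, which binds free hemoglobin, was at a median of 0.236 CPM in naive, 3.30 at 24 h and 1.40 at 72 h (4.00 ± 0.47, edgeR adjusted p 3.74e-09, and 2.18 ± 0.67, 0.00645). The heme exporter Flvcr1 was higher by 0.31 ± 0.07 and 0.38 ± 0.11. Its relative Flvcr2 was at a median of 3.30, 2.38 and 4.78 CPM in naive, 24 h and 72 h punches, lower at 24 h by 0.50 on the log2 scale (SE 0.11, adjusted p 0.000193) and higher at 72 h by 0.68 ± 0.16 (0.000487). The lysosomal heme transporter Slc48a1 was called at 72 h (0.76 ± 0.23), but this rested on LF3 at 818 CPM, and without LF3 it was -0.02 ± 0.09 (0.852), while at 24 h it passed as lower (-0.18, 0.00553).

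Of 8 genes of heme synthesis 2 were lower at 24 h, and 2 were lower and 1 higher at 72 h. Alad, which joins the first pyrrole, was at -0.17 ± 0.07 and -0.34 ± 0.10, and Uros, a later enzyme, at -0.22 ± 0.08 and -0.40 ± 0.12, all called, while Cpox (0.50 ± 0.20 at 72 h) was at -0.09 ± 0.09 without LF3 (0.469). Of 3 genes of heme breakdown only Blvrb, a biliverdin reductase, was called, at 72 h (1.06 ± 0.20, edgeR adjusted p 3.5e-05), and without LF3 the other biliverdin reductase, Blvra, passed as well (0.30, 0.0114). Bach1, a heme-sensing repressor of Hmox1, was at a median of 15.3 CPM in naive, 37.7 at 24 h and 41.5 at 72 h (1.29 ± 0.08 and 1.39 ± 0.11), and Nfe2l2, the NRF2 activator of the same gene, at 13.2, 27.9 and 48.7 CPM (1.12 ± 0.14 and 1.79 ± 0.20). Both were called at both times, and Spic was not tested.

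In the hepcidin axis 6 of 9 genes were tested, 2 were higher and 2 lower at 24 h, and 1 was higher and 1 lower at 72 h. Bmp6, an inducer of hepcidin, was at a median of 8.99 CPM in naive, 3.21 at 24 h and 6.56 at 72 h, with -1.42 ± 0.17 at 24 h (edgeR adjusted p 4.07e-09) and -0.26 ± 0.26 at 72 h (0.411). Bmp2 was higher at 24 h (0.40 ± 0.12). Hfe, a partner of the transferrin receptors, was at a median of 4.02, 5.05 and 18.1 CPM in naive, 24 h and 72 h punches and was called at 72 h (1.97 ± 0.20, 1.59e-10). Erfe, erythroferrone, was at 1.39, 0.556 and 0.430 CPM (-1.18 ± 0.34 and -2.28 ± 0.58). Hepcidin itself was too low to be tested.

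None of the 3 tested genes of iron storage and chaperones other than ferritin was called, but without LF3 Ncoa4, the receptor that takes ferritin to the lysosome, passed at 24 h (0.17 ± 0.07, edgeR adjusted p 0.0416) and 72 h (0.55 ± 0.11, 6.23e-05). Its levels at 72 h had a median of 53.8 CPM and a lowest value of 9.53 CPM. Ireb2, an iron regulatory protein that binds iron responsive elements, was 0.28 ± 0.11 at 24 h (edgeR adjusted p 0.0394) and 0.45 ± 0.17 at 72 h (0.0253). Without LF3 its 72 h value was 0.35 ± 0.17 (0.0934). Aco1, the other such protein, had the same sign: it was 0.26 ± 0.12 at 72 h (0.0836) and passed without LF3 (0.42 ± 0.08, 2.76e-05). Of 6 mitochondrial genes 1 was higher at 24 h, and 1 was higher and 1 lower at 72 h. Slc25a28 was 0.35 ± 0.08 higher at 24 h, and the iron importer Slc25a37 was lower at 72 h (-0.62 ± 0.12, 5.28e-05) and, without LF3, at 24 h (-0.19, 0.0298). Contralaterally 1 of 45 tested genes was called at 24 h, Lcn2 at 2.85 ± 0.47 (adjusted p 0.00016), with levels of 0.173 to 1.83 CPM at 24 h and 0 to 0.349 CPM in naive punches. At 72 h none was called, and at 72 h against 24 h 4 were higher and 1 lower, with 0 higher and 1 lower without LF3.

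**Figure D5:**
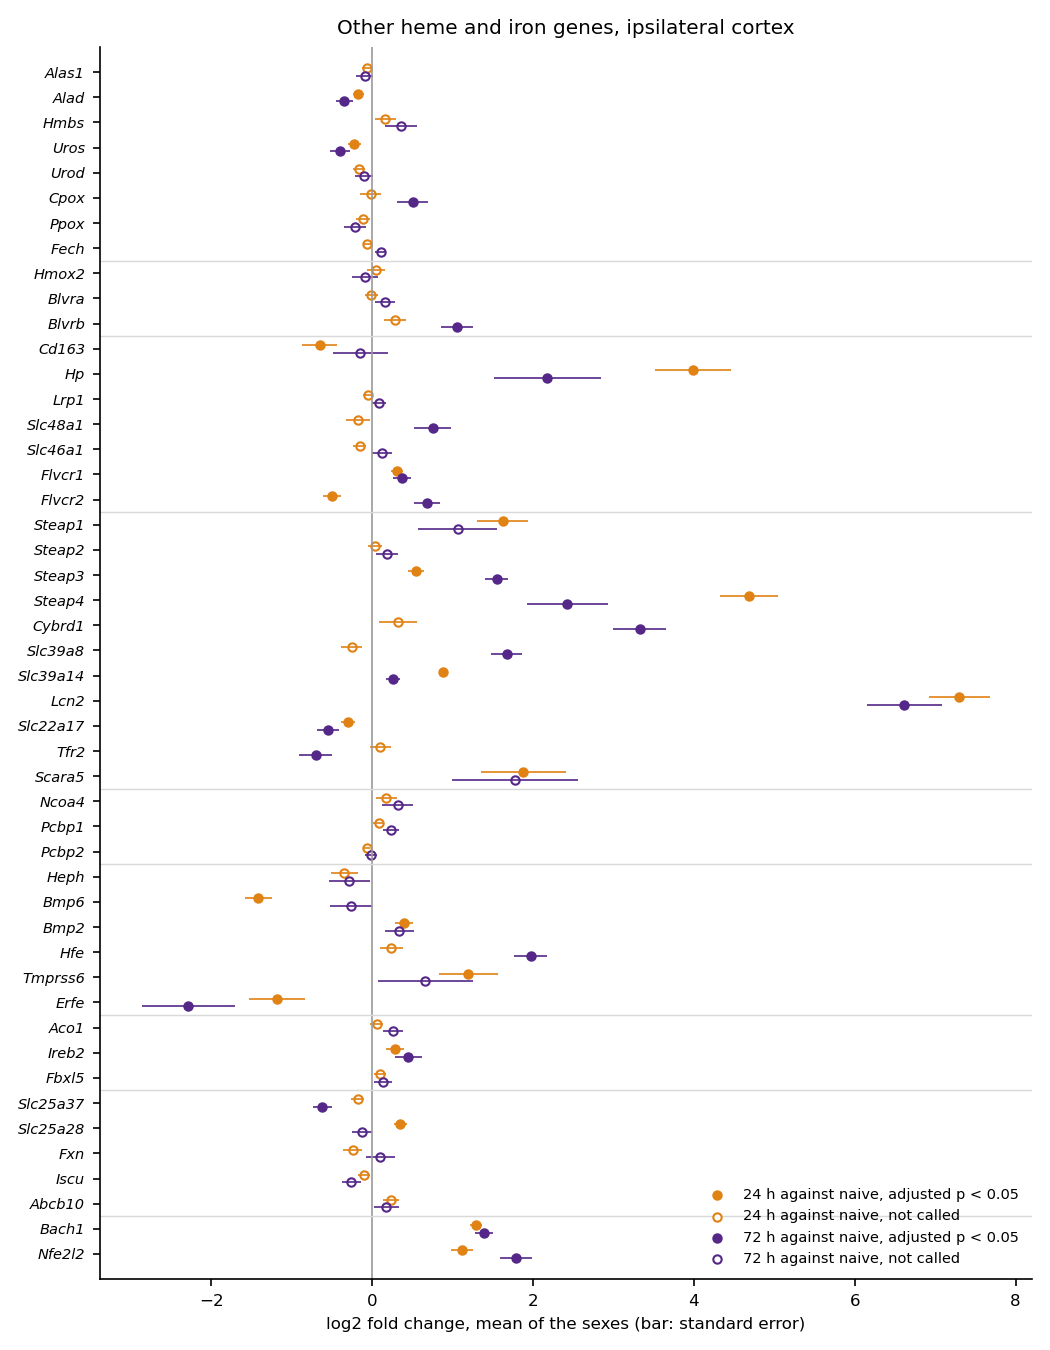
Log2 fold change against naive of other heme and iron genes in ipsilateral cortex at 24 h and 72 h, with grey lines between sub-lists, bars of 1 standard error and filled points for an adjusted p under 0.05. Lcn2 has the highest values (7.30 and 6.62), and most genes of heme synthesis lie near 0.

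For each of the 8 genes called at 24 h, the genes with the nearest course were those with the smallest root mean square difference of log2 CPM over the 12 group means of sex, treatment and side, each gene centred on its mean, among 14014 genes. Atf3 and Tnc were among the nearest to Hmox1 (0.53 and 0.56 log2 units, over a range of 7.35 in Hmox1). Slc40a1 lay nearest to the microglial receptor gene P2ry13, Frem2 and Myl9 (0.17, 0.18 and 0.18, over 2.15), and Slc11a1 to Fcgr2b, Ctsc and Clic1 (0.12, 0.13 and 0.13, over 3.64). Fth1 lay nearest to the ribosomal protein genes Rps2 and Rpl10a and to Surf4, at 0.03 to 0.05, and Ftl1 to Nt5dc2, Mdfic and Npl, at 0.10 to 0.12. Trf lay nearest to Il4ra, Hspb6 and Tgm2 (0.13 to 0.20), Cp to Cttnbp2nl, Plat and Ermard (0.10 to 0.12), and Slc11a2 to Nolc1, Rmnd5b and Sars (0.04 to 0.05).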

How the data were processed

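The authors deposited raw counts of each gene in each library as 1 table, from which CPM and log2 values were derived here. The submitters' processing notes name HISAT2 2.0.5 and mm10. The sources used here do not say how reads were counted, on which annotation or with which strand. The 88 libraries come from 44 animals, and 87 libraries were compared. Of the 54532 genes 54409 were matched to symbols, positions and transcripts of GENCODE M21 (GRCm38), which may differ from the authors' own annotation, and genes without a symbol held 0.0615% of counts. The table held 0 columns of other samples. Within groups, no pair of libraries had a chi-square per gene under 2.64 (genes with at least 20 counts in the pair), so none was counted as a duplicate.

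Ipsilateral libraries (43, 19126 genes after filterByExpr, 35 residual degrees of freedom) and contralateral libraries (44, 18436 genes, 36) were fitted separately in edgeR 4.0.16 (limma 3.58.1, R 4.3.3) by two-sided quasi-likelihood F tests on group means with a batch term and TMM normalization. Contrasts are means of the female and the male contrast unless a sex is named. Sides were compared over both libraries of 43 animals (86 in all, 19946 genes, 37), with a block for each animal; the labels name the animal, which gives the pairing. Benjamini-Hochberg adjustment ran over every gene tested, and calls were made at an adjusted p under 0.05. A standard error is the size of the log2 fold change over the root of its F statistic. Levels are TMM-scaled CPM, and log2 CPM used a prior count of 2. Each group's replicates are separate animals. Relations used scipy 1.17.1 under Python 3.11.15, with numpy 2.4.6 and pandas 2.3.3, and figures matplotlib 3.10.9. At total counts of 10.6 to 26.4 M the standard error was 0.20 log2 units for Hmox1 at 24 h and 0.32 for Hpx, the lowest gene. It also takes in the spread between animals, and the part of depth in it was not tested. The 24 h fit was tested on simulated counts.

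All 10 genes are named in each comparison. Of the other heme and iron genes up to 4 per sub-list with the smallest p among those called at 24 h or 72 h ipsilaterally are named, and 3 genes of nearest course for each member called at 24 h; 2 genes that these rules name are not reported here. The members and lists were chosen with earlier results of these data known. Alternatives were DESeq2 1.42.0, its size factors, upper quartile normalization, no filter, no batch term, batches alone, no animal block, pseudogenes summed, centring within sex and batch for the relations, and leaving out each ipsilateral library; leaving out LF3 or PF1 was tried as well, LF3 being chosen after its values were seen.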

Additional observations from a re-analysis of the deposited data

Results flagged for a closer look

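Single libraries lay far from the rest of their group of sex, treatment and side, by the gap between the end sample and its nearest neighbour over the range, in 24 of the 120 groups tested; chance alone would bring up about 1 in 20 groups. The animal LF3 accounts for 7 of them: contralaterally Fth1 was 3302 CPM, Ftl1 589, Tfrc 81.0, Slc11a2 32.3, Slc40a1 6.50 and Cp 2.48 CPM, and ipsilaterally Slc11a2 was 30.0 CPM, against 52.4 to 60.3 CPM in the other 8 females. Contralaterally ferritin was thus high and the other named genes low in LF3, while its ipsilateral Fth1, 1461 CPM, was the lowest of the 72 h punches. Naive female KF3 was low ipsilaterally in Tfrc (38.2 CPM), Cp (4.15) and Slc40a1 (7.76) and contralaterally in Cp (7.86). Naive male KM3 was low in ipsilateral Tfrc (64.2 CPM), and naive female KF2 was high in contralateral Fth1 (1198 CPM). The male LM2 at 72 h was low contralaterally in Tfrc (55.3 CPM) and Cp (6.04) and high in Ftl1 (126). TM2, a male at 72 h, was low in ipsilateral Trf (21.2 CPM), and PF2, a female at 72 h, was high in contralateral Hmox1 (13.6 CPM). FF3, a female at 24 h, was low in ipsilateral Hpx (0.185 CPM) and contralateral Slc11a1 (1.79) and Tfrc (109.7). Contralateral Slc11a1 was also low in FM3 at 24 h (1.78 CPM) and SM1 at 72 h (1.56), and contralateral Slc11a2 was high in QM1 at 24 h (76.6).

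Levels at 72 h and 24 h differed ipsilaterally by log2 values of 0.99 for Hmox1, 0.32 for Fth1, 1.59 for Ftl1, 1.20 for Trf, 0.98 for Slc11a1, 2.08 for Slc40a1 and -0.42 for Slc11a2, and contralaterally by 0.81 for Ftl1, a value that LF3 carries. The difference between sides in injured mice exceeded that in naive mice at 24 h by 5.39 for Hmox1, 0.44 for Fth1, 1.18 for Ftl1, 1.82 for Trf, 0.21 for Slc11a2, 2.16 for Slc11a1 and 0.83 for Cp, and was -0.90 for Slc40a1. At 72 h it exceeded it by 6.59 for Hmox1, 0.83 for Fth1, 2.66 for Ftl1, 2.45 for Trf, 3.44 for Slc11a1, 1.09 for Slc40a1, 1.45 for Cp and 1.11 for Hpx.

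The ipsilateral library of PM1, which is in no group, held Hmox1 at 377 CPM, Fth1 at 1893, Ftl1 at 659, Trf at 35.2, Slc11a1 at 29.4, Slc40a1 at 22 and Hpx at 1.45 CPM, each above the range of naive ipsilateral punches.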

How the results depend on the processing

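Over 778 values of single genes recomputed under 11 settings, 756 kept their call, 12 lost it and 10 gained one; 0 reversed, counting only values that passed in either fit. The calls lost were 4 of Slc11a2, 3 of Ftl1, 2 each of Fth1 and Hpx and 1 of Trf, and those gained were 6 of Hpx and 4 of Tfrc. The 1 contralateral call at 72 h against 24 h (Ftl1) became 0 without the batch term, in batch B alone and without LF3, and the 1 contralateral call in females at 72 h became 0 under these settings and with upper quartile normalization. In batch B alone, with 4 naive animals, 3 genes were called in females at 24 h, against 7 in all batches, and 4 in males, against 8. Calls over all genes also fell in that batch over the mean of the sexes, to the counts given below. Leaving out each ipsilateral library in turn gave 8 to 9 genes at 24 h, 7 to 8 at 72 h and 5 to 8 between the times. Without the animal block (no replicate block) the counts of the 10 genes for the sides were 0 in naive mice, 9 at 24 h and 9 at 72 h. For the side differences against naive they were 7 and 8, where the paired fit gave 8 and 8. Slc11a2 at 24 h was the gene lost (0.22 ± 0.09, edgeR adjusted p 0.0666). Of all 19946 genes, 0, 8345 and 11433 were called for the sides without the block, against 0, 9517 and 12305 with it. For the side differences 4944 and 8442 were called, against 6120 and 9614. Without the batch term Hpx at 72 h was 0.99 (0.00949) and Tfrc between the times -0.42 (0.00222). With no filter on low counts Fth1 between the times was lost (0.31, 0.0557), as were the side differences against naive of Slc11a2 at 24 h (0.21, 0.177) and Hpx at 72 h (1.12, 0.0666), and Tfrc between sides at 24 h passed (-0.17, 0.0301). Over all genes, contralateral calls ranged from 0 in batch B alone to 1190 without LF3 at 24 h (388 in the fit reported), from 3 in batch B alone to 1456 without the batch term at 72 h (48), and from 3 in batch B alone to 1769 with DESeq2 size factors between the times (1698). In batch B alone ipsilateral calls were 4297 at 24 h and 3854 between the times, against 8216 and 7078. Leaving out PF1 changed none of the members' calls over the mean of the sexes or between sides, and added Slc11a2 in females at 72 h. With levels centred within sex and batch, Ftl1 at 24 h was no longer related to Hmox1 (adjusted permutation p 0.0775) and Tfrc was (r -0.61, 0.0444), and 6 relations passed as before. The causes were not tested. Hpx has under 2 CPM in every library, so a small change in it was not detectable at this depth. Batch C holds no naive or 24 h animals, so its part in the 72 h values is set by the batch term.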
